A study of Homo sapiens with 9 samples.

Results

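The mRNAs and introns of 7 enzymes of folate one-carbon metabolism were examined for cross-links in eCLIP libraries of MDH2. The genes were picked by name from the pathway, with earlier results of these data known. They are *MTHFD1*, *SHMT1*, *TYMS* and *MTR*, whose products work in the cytosol or nucleus, and *SHMT2*, *MTHFD2* and *MTHFD1L*, whose products work in mitochondria. They make up 7 of the 35309 identifiers in the count table and hold 13586 of its 15767969 windows, 1723 of them in exons and 11863 in introns. All 7 passed the filter on low counts in exons and in introns.

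eCLIP joins a protein to the RNA it touches with UV light, purifies the protein and reads where reverse transcription stopped on the attached RNA. The data comprise 9 libraries of UV-irradiated Huh7 cells, a human hepatoma line, with 3 replicates of each of 3 groups. The MDH2 IP was made with an antibody to malate dehydrogenase 2, the size-matched input (SMI) is lysate set aside before the IP and cut from the same range of the gel, and the IgG IP used isotype-matched IgG. No group carries a changed genotype or a drug, and all stem from this 1 line, so the spread between libraries is that of replicates of 1 cell line. Hepatocyte genes on a list of 10 (*ALB*, *AFP* and *APOB* among them) were counted in all libraries. Of 10 genes listed for leukocytes, fibroblasts and endothelium, *LYZ* reached 99.6 counts-per-million (CPM) of the TMM-scaled library size on its exons, *PECAM1* 5.36 and *COL1A2* 3.62, and the other 7 stayed at or below 0.777, with *DCN* at 0 throughout.

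Each exon or intron was tiled with windows 50 nt wide at steps of 20 nt, and a cross-link site was counted in every window over it, up to 3. The window counts of a library totalled 5899998 to 9482501 for MDH2 IP and 8311118 to 9788565 for SMI. The IgG IP libraries were shallower, with 1631267 to 2942816. The IPs were amplified with 14 PCR cycles and SMI with 9, which cannot be told apart from the difference between an IP and SMI. Levels below are CPM summed over the exons or the introns of a gene.

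Folate coenzymes carry single carbon units for the synthesis of purines, thymidylate and methionine. In mitochondria, serine gives up such a unit, which is oxidised and leaves as formate, and in the cytosol formate is attached to tetrahydrofolate again. The branches mirror each other, with paralogous enzymes on either side. MDH2, the protein purified here, is an enzyme of the tricarboxylic acid cycle in the mitochondrial matrix, and binding of an mRNA to it was asked of the whole transcriptome.

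*MTHFD1* stood out through 1 narrow site in an intron. *MTHFD1* (ENSG00000100714.15, chromosome 14, 64388031 to 64463457, plus strand of GRCh38) encodes the cytosolic enzyme that attaches formate to tetrahydrofolate and interconverts the folate forms that feed purines, thymidylate and methionine. A run of 3 consecutive windows of intron 27 of its gene model carried nearly the same counts, and the middle one is described here. Its counts were 202, 174 and 279 in the MDH2 IP replicates. The same window held 0, 1 and 1 in SMI and 6, 3 and 5 in IgG IP. All 3 MDH2 IP libraries lay far above every other library, and each IgG IP library, despite its lower depth, lay above every SMI library.

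The window passed the filter of 10 counts in 3 libraries only through MDH2 IP, the group in which it is high, in the comparison with SMI and in that with IgG IP, so it could enter these tests only by differing, and the counts themselves are the description to rely on. Normalised, the mean of the window was 28.5 CPM in MDH2 IP and 2.58 in IgG IP. With SMI counts below 3 set to 3 in each library, the MDH2 IP was at least 85.9-fold higher than SMI. The log2 fold change over SMI in the fit was 8.02 ± 0.54 (SE, one-sided adjusted p of edgeR's quasi-likelihood test = 5.07e-10), a value that depends on how near-zero counts are treated and is no bound. Over IgG IP it was 2.98 ± 0.43 (adjusted p = 3.32e-05), with a ratio of the means of 11.1. Of all windows tested over SMI, 2066 of 51108 (4.04%) were enriched, and over IgG IP 45 of 30427 (0.148%). Among the intron windows tested over SMI 575 of 4316 were enriched, and 24 of the 45 over IgG IP lay in introns. Thinly counted windows can pass the same filter through 1 group alone, so these numbers do not compare introns with exons. By log2 fold change over SMI the window ranked 85 of the 51108.

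The counts were confined to a stretch of about 10 nt. Windows that start 20 nt apart share 10 nt when 3 of them overlap, and the MDH2 IP counts were 202, 174 and 279 in each of the 3. Another 44 windows of intron 27 were listed, and none of them held more than 2 counts in any library. The numbering of the windows was tied to the genome through the next 5 exons and introns of the gene, in which all 77 listed windows fell at the numbers that the lengths in GENCODE v44 predict. Since the exact offset of the windows in the intron is not known, the shared stretch can be placed only within 29 nt, chr14:64445567-64445595. The sequence of the 3 windows is printed because these were the member windows enriched in the TMM-scaled fits without pairing of replicates. It reads 5′ to 3′ on the plus strand of GRCh38, chr14:64445527-64445635, with the 29 nt that must hold the shared stretch in capitals.

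MTHFD1 intron 27 site: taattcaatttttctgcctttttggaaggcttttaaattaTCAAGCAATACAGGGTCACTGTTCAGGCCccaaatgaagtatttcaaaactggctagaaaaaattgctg

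The site lies in an intron of 3482 nt of the canonical GENCODE v44 transcript, 832 nt after the exon before it and 2621 nt before the next exon. One of 34 annotated *MTHFD1* transcripts has an exon over it. The 29 nt occur 1 time in the genome on either strand without a mismatch. GC made up 51.7% of the 29 nt and 34.9% of the 109 nt of the windows. A noncoding gene on the minus strand (ENSG00000258824.2) spans the site, and no window of it held more than 1 count in any library. The study's methods mention a screen against sites without input reads and against aberrant single-peak sites, mostly intronic. The site had a count of 0 in 1 SMI library and 1 in each of the others. The rule for single peaks is not given in the sources used here, the screen was not repeated, and whether it removed this site is not known. Narrow runs were common here: of 271 runs of enriched intron windows over SMI, 260 (95.9%) spanned 3 or fewer windows.

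**Figure D1:**
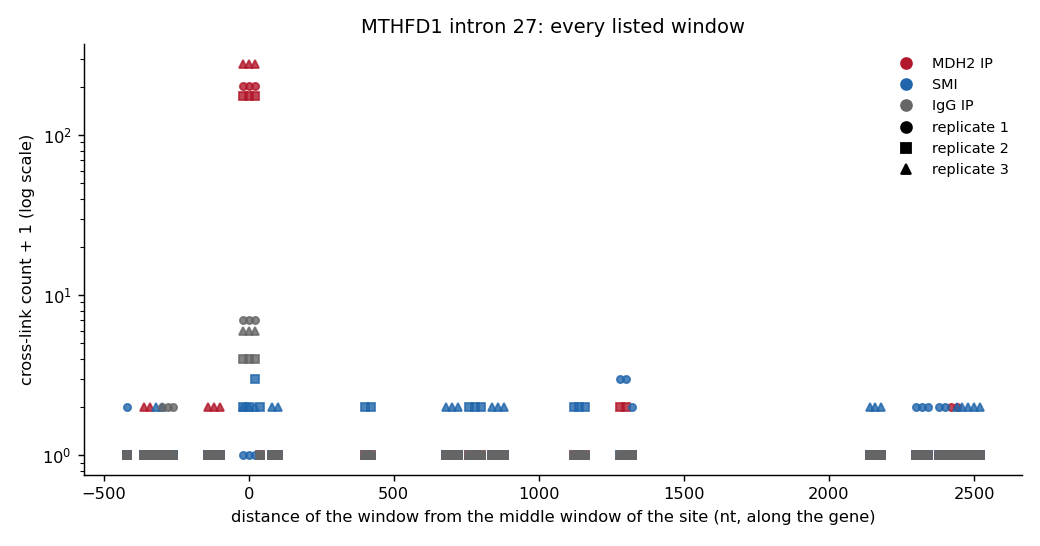
Cross-link count plus 1 (log scale) of every listed window of *MTHFD1* intron 27 against its distance in nt from the middle window of the site, with colours for the groups and symbols for the replicates. The 3 central windows reach 202, 174 and 279 in MDH2 IP, while no other window of the intron exceeds 2 counts.

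Most *MTHFD1* counts in MDH2 IP came from this site. *MTHFD1* introns summed to 66.2, 79.0 and 143 CPM in the MDH2 IP replicates, 23.8, 13.4 and 27.1 in SMI and 23.1, 8.89 and 28.8 in IgG IP. The 3 windows of the site supplied 86.1%, 88.5% and 90.8% of these intron counts in MDH2 IP, at most 3.23% in SMI and from 29% to 64.3% in IgG IP. Intron sums of *MTHFD1* were higher in MDH2 IP than in SMI by a log2 fold change of 2.15 ± 0.33 (SE, edgeR adjusted p = 0.00131) and than in IgG IP by 2.34 ± 0.39 (adjusted p = 0.00339). Without the 3 windows the introns held 9.22, 9.11 and 13.2 CPM in MDH2 IP and 23.8, 13.0 and 26.7 in SMI. The direction then turned, to a log2 fold change of -1.03 ± 0.29 against SMI (adjusted p = 0.0217) and -0.17 ± 0.47 against IgG IP (adjusted p = 0.817). This alternative was chosen after the data were seen.

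*MTHFD1* exons were counted far less, and held 22.9, 17.4 and 24.4 CPM in MDH2 IP, 18.9, 11.6 and 18.7 in SMI and 13.4, 1.90 and 10.8 in IgG IP. MDH2 IP was above SMI in all 3 pairs of the same number, though the groups overlap. All 3 MDH2 IP libraries were above all IgG IP libraries, 1 of which rests on 3 counts. In that comparison 83.7% of all exon rows had a log2 fold change above 0. Over SMI the log2 fold change was 0.38 ± 0.24 (SE, edgeR adjusted p = 0.248), and 0.40 ± 0.16 with the replicates paired (adjusted p = 0.0337). It was 1.35 ± 0.46 over IgG IP (adjusted p = 0.0566). Without single libraries it ranged from 0.91 to 1.93, the highest without replicate 1 of IgG IP (edgeR adjusted p = 0.0369). No exon window of *MTHFD1* had enough counts to be tested, and the highest, in exon 16, held 5, 4 and 2 in MDH2 IP.

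Across the 7 genes, exon sums were mostly somewhat higher in MDH2 IP than in SMI and intron sums mostly lower. This is what most genes showed. Of all exon rows in this comparison 20.6% were called higher and 6.79% lower, with a median log2 fold change of 0.27. Of all intron rows, 9.35% were higher and 30.7% lower, with a median of -0.40. The 7 genes had a median of 0.38 in exons and -0.33 in introns. On exon sums 1 of the 7 was higher (*MTHFD1L*) and 0 were lower. On intron sums 1 was higher (*MTHFD1*) and 2 were lower (*MTHFD1L* and *MTR*).

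The replicate numbers paired MDH2 IP with SMI, and the paired fit narrowed the errors. With the replicate number as a block, 5 of the 7 were higher on exon sums (*MTHFD1*, *SHMT1*, *MTR*, *SHMT2* and *MTHFD1L*) and *MTHFD2* was lower, while *TYMS* was not called. In that fit 35.9% of all exon rows were higher and 12.5% lower. On intron sums *MTHFD1* and *SHMT2* were then higher and *MTR*, *MTHFD2* and *MTHFD1L* lower, beside 15.3% and 43.4% of all intron rows. The p-values measure the spread between these libraries.

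Against IgG IP, all 7 exon log2 fold changes were above 0, as were 83.7% of those of all genes. *MTHFD1L* and *SHMT1* were called higher and 0 were called lower, where 16.6% of all exon rows were higher and 1.3% lower. On intron sums *MTHFD1* alone was called higher, through the site above, and 0 were lower. Of all intron rows 0.467% were higher and 21.1% lower in this comparison. These counts and those against SMI share the MDH2 IP libraries.

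**Figure D2:**
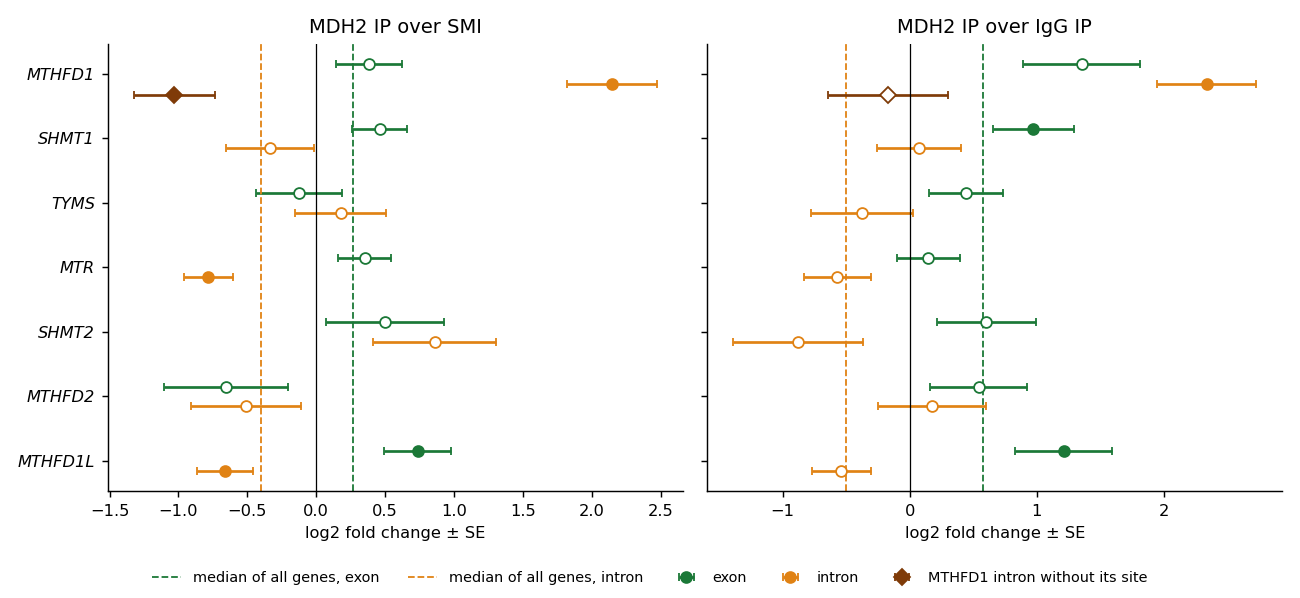
Log2 fold change ± SE of the 7 genes on exon and intron sums, MDH2 IP over SMI (left) and over IgG IP (right), 3 libraries in each group. Filled symbols passed an adjusted p of 0.05 and dashed lines mark the medians of all genes. The diamond is the *MTHFD1* intron sum without its site, at -1.03 against SMI where the full sum lies at 2.15.

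*SHMT1* (ENSG00000176974.17, chromosome 17, 18327860 to 18363563, minus strand) encodes the cytosolic serine hydroxymethyltransferase, which moves a carbon of serine to tetrahydrofolate. Its exons held 50.9, 35.1 and 39.8 CPM in MDH2 IP, 32.7, 24.7 and 33.4 in SMI and 31.6, 12.7 and 23 in IgG IP. All MDH2 IP libraries lay above all libraries of both controls. The share of all genes that separate so is not given. Of all exon rows, 65.7% had a log2 fold change above 0 over SMI and 83.7% over IgG IP. *SHMT1* exons rose over IgG IP by 0.97 ± 0.32 on the log2 scale (edgeR adjusted p = 0.0496), at the edge of the threshold. That call was lost without any 1 of the MDH2 IP libraries or without replicate 2 or 3 of IgG IP, with values of 0.69 to 1.12. Over SMI it was 0.46 ± 0.20 (adjusted p = 0.103), and 0.46 ± 0.12 in the paired fit (adjusted p = 0.00175). Its introns, at 25.4 ± 7.62 CPM in MDH2 IP and 31.7 ± 12.4 in SMI (SD, n = 3), overlapped between groups and were not called.

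*TYMS* (ENSG00000176890.15, chromosome 18, 657653 to 673578, plus strand) encodes thymidylate synthase, which methylates dUMP with a folate-borne carbon. Its exons held 25.3, 25.6 and 40.5 CPM in MDH2 IP, 31.7, 19.1 and 47.5 in SMI and 25.3, 17.1 and 29.5 in IgG IP. The groups overlap throughout, and *TYMS* was the 1 member not called in either direction on exon or intron sums by either fit against SMI. The log2 fold change of its exons over SMI was -0.13 ± 0.31 (adjusted p = 0.786) and over IgG IP 0.44 ± 0.29 (adjusted p = 0.288). The value against SMI ranged from -0.40 without replicate 2 of SMI to 0.24 without replicate 3 of SMI.

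*MTR* (ENSG00000116984.12, chromosome 1, 236795260 to 236921278, plus strand) encodes methionine synthase, which passes the methyl group of methyltetrahydrofolate to homocysteine. Its exons were almost level, at 34.0, 34.3 and 24.4 CPM in MDH2 IP, 23.1, 24.6 and 24.7 in SMI and 32.4, 31.1 and 26.6 in IgG IP. Replicate 3 of MDH2 IP lay within the range of SMI. Over SMI the difference was 0.35 ± 0.19 on the log2 scale (adjusted p = 0.184) and 0.34 ± 0.14 in the paired fit (adjusted p = 0.0388). Its introns held 29.8, 20.9 and 28.7 CPM in MDH2 IP against 46.2, 42.8 and 46.6 in SMI and fell by 0.78 ± 0.18 on the log2 scale (adjusted p = 0.00856). Against IgG IP, at 44.6, 51.4 and 30.2, all MDH2 IP libraries were lower, but the difference was not called (log2 fold change -0.57 ± 0.26, adjusted p = 0.14). Only 21.4% of all intron rows had a log2 fold change above 0 in that comparison.

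*SHMT2* (ENSG00000182199.10, chromosome 12, 57229573 to 57234935, plus strand) encodes the mitochondrial serine hydroxymethyltransferase, and its exons were the most counted of the 7. They held 279, 414 and 143 CPM in MDH2 IP, 199, 300 and 92.7 in SMI and 250, 239 and 104 in IgG IP. The spread within a group exceeded that between groups, and the order of the replicates was the same in MDH2 IP and SMI. Within each number MDH2 IP was above SMI, by 1.40, 1.38 and 1.54-fold. The log2 fold change was 0.50 ± 0.43 without the pairing (adjusted p = 0.399) and 0.51 ± 0.07 with it (adjusted p = 7.95e-08). Over IgG IP it was 0.60 ± 0.39 (adjusted p = 0.281).

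Along *SHMT2*, 93 exon windows were tested against SMI and 0 were enriched, with log2 fold changes from -1.36 to 1.33 and a median of 0.10. In the paired fit 3 windows of it were enriched, 1 in exon 1 and 2 in exon 4, at log2 fold changes of 1.05 to 1.30, and 2 windows in exon 6 were lower. The window with the most MDH2 IP counts, in exon 7, held 68, 63 and 15 there, 26, 50 and 13 in SMI and 7, 3 and 2 in IgG IP, and was not called (adjusted p = 1). *SHMT2* is compact, and its introns held few counts, 7.11 ± 2.91 CPM in MDH2 IP, against 3.96 ± 1.96 for SMI and 14.4 ± 10.9 for IgG IP (SD, n = 3). This intron sum was the 1 member row called between the controls, higher in IgG IP than in SMI (log2 fold change 1.87 ± 0.58, adjusted p = 0.0372). The call held only without replicate 3 of IgG IP. Without any other library it was lost, with values from 1.14 (replicate 2 of IgG IP left out) to 2.19. Between MDH2 IP and SMI the introns differed by 0.86 ± 0.45 (adjusted p = 0.165), and by 0.87 ± 0.30 in the paired fit (adjusted p = 0.0136).

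*MTHFD2* (ENSG00000065911.11, chromosome 2, 74186172 to 74217565, plus strand) encodes the mitochondrial methylenetetrahydrofolate dehydrogenase and cyclohydrolase, an enzyme of growing and tumour cells. It was the 1 member with fewer exon counts in MDH2 IP than in SMI within every pair. Its exons held 79.2, 114 and 41.9 CPM in MDH2 IP, 127, 193 and 50.4 in SMI and 65.5, 76.8 and 30.9 in IgG IP. Against SMI the log2 fold change was -0.66 ± 0.45 without the pairing (adjusted p = 0.285) and -0.60 ± 0.09 with it (adjusted p = 3.75e-07). Without single libraries the unpaired value ranged from -1.03 to -0.18, the lowest without replicate 3 of SMI (edgeR adjusted p = 0.0471). Against IgG IP the log2 fold change was 0.54 ± 0.38 (adjusted p = 0.322). MDH2 IP thus lay between the controls, and IgG IP was not called against SMI without the pairing (log2 fold change -1.06 ± 0.43, adjusted p = 0.0979). In the paired fit IgG IP was also lower than SMI, at -1.01 ± 0.18 (edgeR adjusted p = 0.000206). MDH2 IP was then higher than IgG IP (0.53 ± 0.18, edgeR adjusted p = 0.0351). Of its 25 exon windows tested against SMI 0 were enriched. In the paired fit 2 windows in exon 2 were lower. Its introns were not called against SMI (log2 fold change -0.51 ± 0.40, adjusted p = 0.351) except in the paired fit (-0.54 ± 0.11, adjusted p = 6.6e-05).

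*MTHFD1L* (ENSG00000120254.15, chromosome 6, 150865679 to 151101887, plus strand) encodes the mitochondrial formyltetrahydrofolate synthetase, which releases formate. Exons and introns of this long gene went opposite ways. Its exons held 74.8, 83.4 and 44.6 CPM in MDH2 IP, 41.9, 46.9 and 32.8 in SMI and 51.3, 19.7 and 20.1 in IgG IP, and rose over SMI by 0.73 ± 0.25 on the log2 scale (adjusted p = 0.0421) and over IgG IP by 1.21 ± 0.38 (adjusted p = 0.0439). Replicate 3 of MDH2 IP overlapped with both controls. Its introns held 306, 250 and 201 CPM in MDH2 IP, 464, 417 and 313 in SMI and 419, 463 and 304 in IgG IP, and fell against SMI by 0.66 ± 0.20 on the log2 scale (adjusted p = 0.0292). Against IgG IP the intron log2 fold change was -0.54 ± 0.23 (adjusted p = 0.115). The exon call against SMI was lost without replicate 1 or 2 of MDH2 IP or replicate 1 or 3 of SMI, at 0.56 to 0.76. Against IgG IP it was lost without replicate 1 or 2 of MDH2 IP or replicate 2 or 3 of IgG IP, at 0.97 to 1.18. The intron call was lost without replicate 2 or 3 of MDH2 IP or replicate 1 or 2 of SMI, at -0.65 to -0.51. In the paired fit both calls against SMI held (adjusted p = 4.33e-07 and 2.55e-11).

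**Figure D3:**
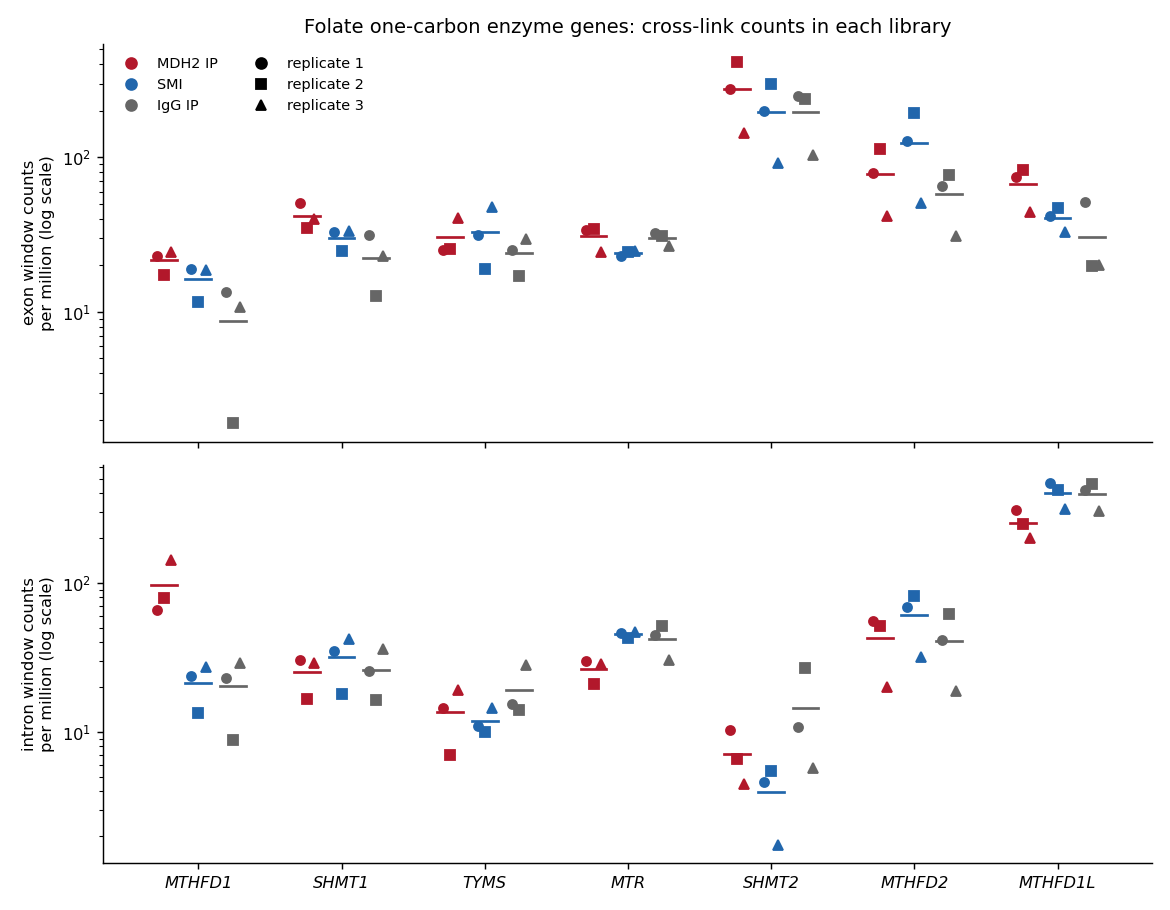
CPM of window counts (log scale) of the 7 genes in each library, exons above and introns below, with colours for the groups, symbols for the replicates and a bar at each mean of 3. Replicate 3 is the lowest of its group for *SHMT2* and *MTHFD2* exons in all 3 groups, and *MTHFD1* introns stand above both controls in MDH2 IP.

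To compare genes, exon levels were divided by the number of listed exon windows, a rough stand-in for length. Not every window is listed: 10 of 55 predicted ones were in intron 28 of *MTHFD1*, and 8 of 8 in exon 29. The number may thus also depend on how well a gene was counted. In MDH2 IP the order, in mean CPM per 1000 windows, was *SHMT2* at 1280, *MTHFD1L* at 354, *MTHFD2* at 340, *TYMS* at 287, *SHMT1* at 135, *MTHFD1* at 94.7 and *MTR* at 70.4. The replicates of *MTHFD1L*, *MTHFD2* and *TYMS* overlapped in this order, as did those of *MTHFD1* and *MTR*. In SMI *SHMT2* was again first, at 904, and *MTHFD2* came next at 536.

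Replicate 3 stood apart from the others for several genes. The exon level of *SHMT2* in replicate 3 was 0.412 of the mean of the other two in MDH2 IP, and the same ratio was 0.372 for SMI and 0.427 for IgG IP. *MTHFD2* behaved alike, at 0.435, 0.315 and 0.435, and *MTHFD1L* stood at 0.563, 0.739 and 0.567. In contrast, *TYMS* was higher in replicate 3, at 1.59, 1.87 and 1.39 of the others, and so was *MTHFD1*, at 1.21, 1.23 and 1.41. *SHMT1* and *MTR* showed no common direction. The pattern was noticed in the data, has no test and is present in SMI as in both IPs.

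Among 7049 genes with at least 10 exon counts in every library, those whose pattern over the 9 libraries was most like *SHMT2* were *SYVN1*, *KDM4A*, *LTBP1*, *HSPA5* and *SLC3A2*. Their centred log2 levels differed from it by 0.088 to 0.152 on average. *SYVN1*, an ubiquitin ligase of the endoplasmic reticulum, held 124, 186 and 71.1 CPM in MDH2 IP and 84.7, 128 and 49.1 in SMI. *HSPA5*, a chaperone of the same compartment, held 549, 834 and 267 in MDH2 IP and 319, 450 and 163 in SMI.

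The place of the counts within the transcripts also differed between groups. Introns made up 79.1% ± 3.65 of *MTHFD1L* counts in MDH2 IP, against 90.7% ± 0.934 for SMI and 92.9% ± 3.50 for IgG IP (SD, n = 3). For *MTR* the intron share was 46.2% ± 8.13 in MDH2 IP and 65.2% ± 1.64 in SMI, and for *SHMT1* 37.2% ± 4.98 and 49.9% ± 6.97. In these 3 genes all MDH2 IP libraries were below all SMI libraries, as in 53.7% of 8033 protein-coding genes with at least 100 counts in each of these 6 libraries. *MTHFD1* had the higher share in MDH2 IP, 80.6% ± 5.72 against 56.2% ± 2.74 in SMI. All its MDH2 IP libraries were above all SMI libraries, as in 335 of the 8033 genes. Without the site its share was lower in MDH2 IP, 32.7% ± 3.53 against 55.8% ± 2.98. *SHMT2*, *MTHFD2* and *TYMS* overlapped between MDH2 IP and SMI. Against IgG IP all MDH2 IP libraries were lower for *MTHFD1L*, *SHMT1* (54.1% ± 8.35 in IgG IP), *TYMS* and *SHMT2*, and the other members overlapped. *TYMS* stood at 29.9% ± 7.72 against 43.8% ± 5.66 in IgG IP, and *SHMT2* at 2.72% ± 1.04 against 6.47% ± 3.14. With non-overlapping windows *SHMT2* overlapped with IgG IP. No share of all genes is given for IgG IP. Each of the 4 genes separated from SMI gave an exact two-sided permutation p of 0.1. This is the smallest that 3 libraries against 3 allow (0.175 after Benjamini-Hochberg adjustment over 14 comparisons).

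The shares of exon counts in the first and in the last exon separated MDH2 IP from SMI in 4 of the 7 genes each, and none passed the test after adjustment. The first exon of *MTHFD2* held 13.9%, 22.1% and 27.4% of its exon counts in MDH2 IP, 6.22%, 7.79% and 9.39% in SMI and 19.9%, 20.7% and 27.9% in IgG IP. Both IPs were thus above SMI. The first exon of *SHMT1* held 17.6%, 13.0% and 20.7% in MDH2 IP and 8.92%, 6.11% and 6.77% in SMI. In IgG IP it held 10.6%, 40.0% and 15.6%, which overlaps with MDH2 IP, and replicate 2 there rests on 20 exon counts. That of *TYMS* held 24.5%, 39.3% and 26.8% in MDH2 IP against 22.6%, 9.60% and 16.5% in SMI. In IgG IP it held 17.6%, 18.5% and 19.5%, below all MDH2 IP libraries. *SHMT2* showed a small shift, 5.02% ± 1.34 in MDH2 IP against 3.05% ± 0.974 in SMI (SD, n = 3), and overlapped with IgG IP, at 3.59% ± 1.27. In these 4 of 7 genes all MDH2 IP libraries were above all SMI libraries, as in 34.5% of 5255 protein-coding genes with 3 or more exons and 100 or more exon counts in each of these 6 libraries. With non-overlapping windows *SHMT2* overlapped. Each of the 4 gave an exact two-sided permutation p of 0.1 (0.28 after adjustment).

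The last exon of *MTHFD2* took 46.9%, 43.7% and 40.4% of exon counts in MDH2 IP, against 68.5%, 61.1% and 61.4% for SMI. For *TYMS* the last exon took 19.7% ± 4.41 in MDH2 IP and 35.2% ± 2.98 in SMI, for *SHMT1* 20.3% ± 3.05 and 26.6% ± 1.49, and for *SHMT2* 28.4% ± 1.47 and 32.9% ± 0.156 (SD, n = 3). In these 4 genes all MDH2 IP libraries were below all SMI libraries, as in 37.6% of the 5255 genes. Against IgG IP the same 4 genes overlapped. The exact two-sided permutation p was 0.1 for each against SMI, the smallest possible (0.233 after adjustment). First and last exons were examined after the data were seen.

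The exon window with the most MDH2 IP counts lay in exon 1 for *MTHFD2*, *SHMT1*, *TYMS* and *MTR*. That of *MTHFD2* held 20, 42 and 14 in MDH2 IP, 16, 26 and 8 in SMI and 9, 5 and 4 in IgG IP. It was tested and not called (log2 fold change over SMI 0.44 ± 0.43, adjusted p = 1). Those of *SHMT1*, *TYMS* and *MTR* held at most 18 counts in a library and were not tested. In *MTHFD1L* the window lay in exon 21, with 21, 14 and 5 in MDH2 IP, 1, 4 and 5 in SMI and 2, 0 and 0 in IgG IP. In the introns of the 6 genes other than *MTHFD1* the corresponding windows held at most 12 counts in a library.

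**Figure D4:**
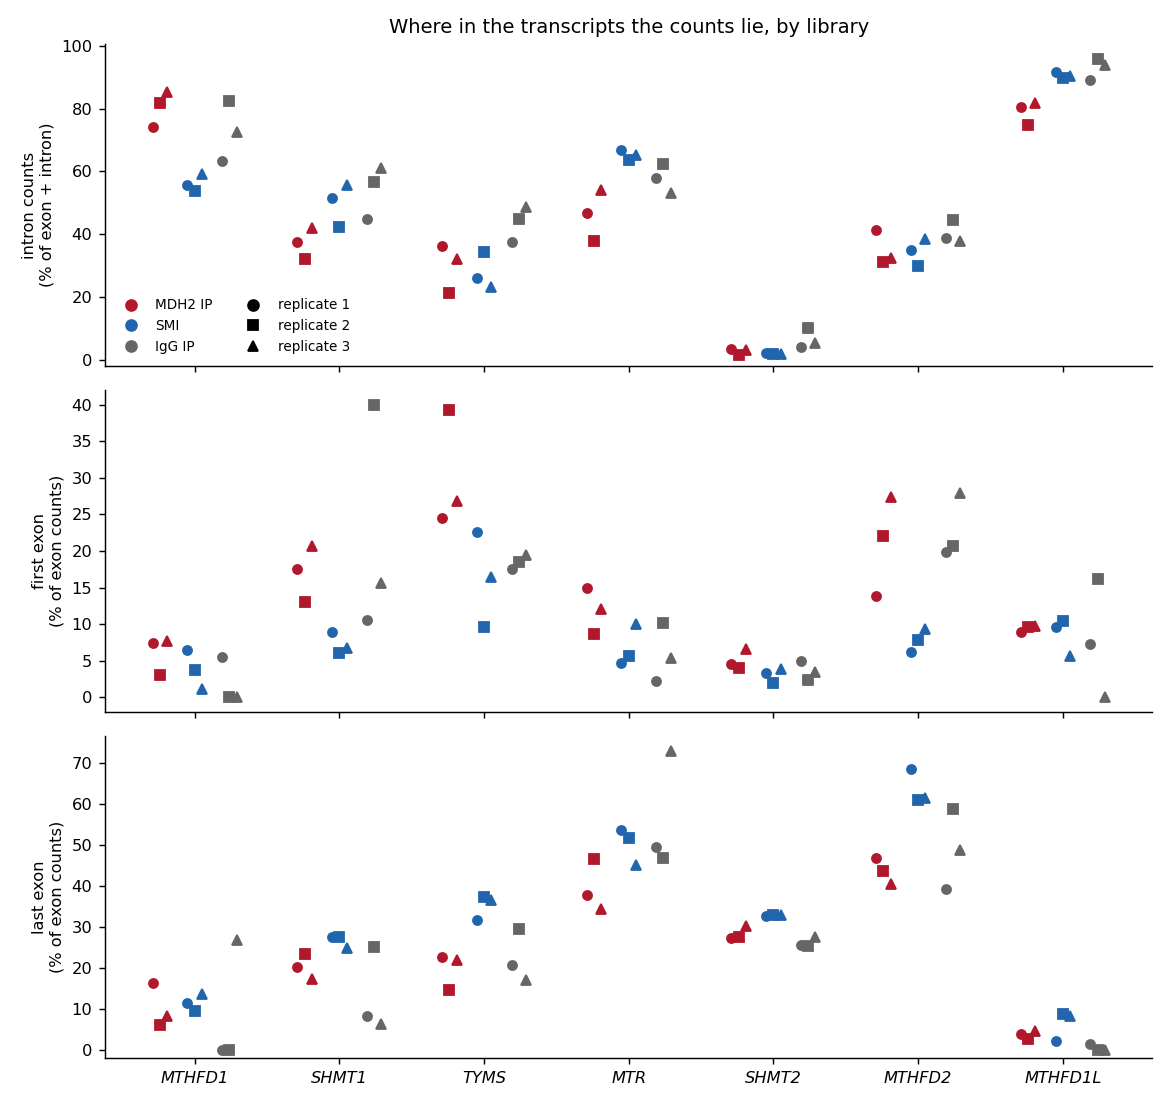
Share of counts in introns (top), and of exon counts in the first exon (middle) and in the last exon (bottom), for each of the 7 genes and 9 libraries, in percent. Colours mark the groups and symbols the replicates. For *MTHFD2* the first exon lies between 13.9% and 27.4% in MDH2 IP and at or below 9.39% in SMI.

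Between the controls, IgG IP against SMI, 0 of the 7 exon sums and only the *SHMT2* intron sum passed the test. Of the exon sums 1, *MTHFD2*, had an unadjusted edgeR p under 0.05 (0.0294), and DESeq2 also called 0. Of all exon rows 7.51% were higher and 10.6% lower in IgG IP, and of all intron rows 20.2% and 5.44%. No member window was enriched in IgG IP over SMI, where 6.14% of all windows tested were. The *MTHFD1* site was too thinly counted there to be tested.

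A list of 40 further genes of folate, serine, glycine and methionine metabolism was set beside the 7, and 39 of them were in the table. Of the 35 tested on exon sums against SMI, 7 were higher in MDH2 IP and 1 lower, with a median log2 fold change of 0.24 beside 0.27 for all genes. In the paired fit 15 were higher and 1 lower. Against IgG IP 3 of 34 were higher and 1 lower, with a median of 0.55 beside 0.58. On intron sums against SMI 4 of 34 were higher and 10 lower, with a median of -0.24 beside -0.40, where 9.35% of all intron rows were higher and 30.7% lower. The shares of all exon rows called higher were 20.6% against SMI, 35.9% in the paired fit and 16.6% against IgG IP.

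Of the folate carriers, *SLC46A1*, the proton-coupled folate transporter, rose over SMI by 0.61 ± 0.20 on the log2 scale (adjusted p = 0.0408). It was not called over IgG IP (0.26, edgeR adjusted p = 0.572), nor was IgG IP over SMI (0.49, adjusted p = 0.297). *SLC19A1*, the reduced folate carrier, fell against IgG IP by 1.15 ± 0.28 (adjusted p = 0.0182), with 35.5, 28.4 and 55.1 CPM in MDH2 IP and 84.1, 72.3 and 129 in IgG IP. For this gene IgG IP was higher than SMI (1.79, edgeR adjusted p = 0.000725), while MDH2 IP was not called over SMI (0.51, adjusted p = 0.17). On its intron sums both IPs were higher than SMI, MDH2 IP by 1.22 (edgeR adjusted p = 0.0057) and IgG IP by 3.71 (adjusted p = 1.24e-05).

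Among the enzymes that interconvert folates, *MTHFD2L*, the paralog of *MTHFD2*, fell against SMI by 1.21 ± 0.27 on the log2 scale (adjusted p = 0.00755), as did IgG IP against SMI (by 1.56, adjusted p = 0.0307), with 5.55, 4.69 and 3.42 CPM in MDH2 IP and 9.95, 11.6 and 10.2 in SMI. *MTHFS*, which returns formyltetrahydrofolate to use, rose over IgG IP by 1.36 ± 0.44 (adjusted p = 0.0494), where 2 IgG IP libraries hold 5 counts each.

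Of the glycine cleavage system, *AMT* rose over SMI on exon sums by 1.03 ± 0.18 (adjusted p = 0.00233) and *GLDC* by 0.74 ± 0.15 (adjusted p = 0.0047) on the log2 scale. On these sums *GCSH* and *DLD* were not called. On intron sums *GLDC* (-0.83), *GCSH* (-1.45) and *DLD* (-0.96) were called lower against SMI, as were 30.7% of all intron rows. In the methionine cycle *MAT2A*, which makes S-adenosylmethionine, rose over SMI by 0.76 ± 0.16 (adjusted p = 0.00543) and over IgG IP by 0.93 ± 0.20 (adjusted p = 0.0097). *AHCY*, which hydrolyses S-adenosylhomocysteine, rose over IgG IP by 0.71 ± 0.23 (adjusted p = 0.0463). *SARDH*, a mitochondrial enzyme that breaks down sarcosine, rose over SMI by 0.66 ± 0.16 (adjusted p = 0.0121). IgG IP was also higher than SMI for *SARDH* (0.94, adjusted p = 0.0276) and *AMT* (0.83, adjusted p = 0.0232), and MDH2 IP was not called over IgG IP for *SARDH* (-0.16, adjusted p = 0.696) or *AMT* (0.33, adjusted p = 0.316). *TYMP*, which breaks down thymidine, rose over SMI by 1.58 ± 0.54 (adjusted p = 0.044) on 5 to 20 counts a library. Over IgG IP *TYMP* was not called (0.47, edgeR adjusted p = 0.694). None of the 3 serine synthesis genes and none of the 3 purine and formyl genes was called on exon sums against either control without the pairing.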

How the data were processed

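Cross-link sites were counted in 9 eCLIP libraries of Huh7 cells (3 MDH2 IP, 3 SMI, 3 IgG IP). The authors trimmed adapters, aligned reads to GRCh38 with STAR, kept reads with at most 10 alignments, removed PCR duplicates by molecular identifiers, and deposited raw counts of sites per sliding window with htseq-clip on GENCODE v23 and tRNA genes. Identifiers were named through GENCODE v44 (33751 of 34950 Ensembl identifiers matched). The 7 genes and all lists were chosen with earlier results of these data known.

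Counts were summed over the exon windows and the intron windows of each gene. A row entered a test where 3 or more of the 6 libraries held 10 counts or more. The test was that of edgeR 4.0.16, run under R 4.3.3 (TMM, quasi-likelihood, two-sided, Benjamini-Hochberg over all rows, adjusted p of at most 0.05). Windows were tested one-sided, with each p corrected for how many tested windows overlap, with a log2 fold change of at least 1 for enrichment. Only the groups compared entered a fit. Every member is named throughout, as are listed pathway genes that were called on exon sums or hold an enriched window against either control, the 5 genes most like *SHMT2*, and enriched member windows or else those with the most MDH2 IP counts. Some listed pathway genes that meet this rule are not reported here. Tests were tried on simulated data. Same-numbered MDH2 IP and SMI libraries deviated together (correlations 0.125, 0.476 and 0.489), as the numbers in the labels allow, so their paired fit is given. No library was a copy of another within sampling noise. Values after ± are SEs of the edgeR fits for log2 fold changes and SDs of 3 libraries for CPM and shares. Both include the spread between libraries. Alternatives were DESeq2 1.42.0, other scalings, filters, non-overlapping windows, a fit of all 9 libraries, other window thresholds and leaving out each library. Figures were drawn with matplotlib 3.10.9.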

Additional observations from a re-analysis of the deposited data

How the results depend on the processing

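Of 469 recalculations of values for single genes, 404 kept their sign and their side of the threshold, 25 lost a call, 25 gained one and 15 changed sign. The *MTHFD1* window stayed enriched in every alternative run on it, at log2 fold changes of 7.59 to 8.33 over SMI and 2.61 to 3.26 over IgG IP when single libraries were left out. Those fits kept the windows that passed the filter on all libraries compared. The window thus again entered only through MDH2 IP, and its stability there is no further test of it. Scaling by total counts moved the median of all exon rows by 0.17 against SMI and by 0.20 against IgG IP, and the fit of all 9 libraries moved it by -0.15 against IgG IP. The cause of the changes below was not tested.

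On exon sums against SMI, where 1 member was called, 2 were called with total counts, 0 with a filter of 5 counts in 2 libraries, 3 with no filter, 6 with the replicate block, 0 in the fit of all 9 libraries and 0 to 1 without single libraries. On intron sums against SMI, where 3 were called, the replicate block gave 5, also without the *MTHFD1* windows, and leaving out libraries 2 to 3. On exon sums against IgG IP, where 2 were called, no filter gave 4, the replicate block 5 and leaving out libraries 0 to 3. With that block 3604 of all 12573 exon rows were higher and 223 lower. On intron sums against IgG IP, where 1 was called, the replicate block gave 2, the fit of all 9 libraries 3, leaving out the *MTHFD1* windows 0 and leaving out libraries 1 throughout. With the block 108 of all 12847 intron rows were higher and 3756 lower. Between the controls, exon sums gave 1 with no filter, 1 with the replicate block and 0 to 1 without single libraries, beside 0. Intron sums gave 2 with no filter, 2 with the replicate block (2 also without the *MTHFD1* windows) and 0 to 1 without single libraries, beside 1. With the block 1226 of all 12788 exon rows were higher in IgG IP than in SMI and 2094 lower. Of all 12996 intron rows 2934 were higher and 1323 lower. For the other alternatives, here and below, no share of all rows or windows is given, so those counts describe the members only. Same-numbered IgG IP and MDH2 IP libraries deviated together only in replicates 2 and 3 (correlations -0.0276, 0.209 and 0.269). The same held for IgG IP and SMI (0.0053, 0.23 and 0.277). These correlations are weaker than those of MDH2 IP with SMI.

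Of member windows, 3 were enriched over SMI, 9 with total counts and 6 with the replicate block. Over IgG IP the count stayed at 3, apart from 4 with total counts. In IgG IP over SMI it was 0, but 3 with a filter of 5 counts in 2 libraries and 0 to 1 without single libraries.

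The *MTHFD1* intron sum without the site was -1.03 against SMI and -1.0012 with the replicate block, and -0.17 and -0.0449 against IgG IP. *TYMS* exons against SMI came to 0.0456 with total counts, from -0.13, a move about equal to the shift of 0.17 in the median of all exon rows, and ranged from -0.40 to 0.24 without single libraries, and its introns from -0.12 to 0.50. *MTR* exons against IgG IP turned to -0.0083 in the fit of all 9 libraries. *SHMT1* introns against IgG IP turned to -0.0768 in that fit, to -0.0147 with non-overlapping windows and ranged from -0.16 to 0.34 without single libraries, and *MTHFD2* introns from -0.15 to 0.56. None of these sign changes outside *MTHFD1* concerned a called value. IgG IP held the fewest counts, and its depth limits the comparisons with it.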
